A study of Mus musculus with 10 samples.

Results

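The acyl-CoA thioesterase (Acot) family was examined in livers of wild-type (WT) mice and of mice that lack the thyroid hormone receptor beta gene Thrb in hepatocytes (Thrb hep-/-). The set has 10 genes, Acot1, Acot2, Acot3, Acot4, Acot7, Acot8, Acot9, Acot11, Acot12 and Acot13, out of 55401 genes counted. It was chosen by the rise of Acot1 between these genotypes, so the difference in Acot1 is given as a description with no test. RNA-seq libraries came from 5 WT and 5 Thrb hep-/- livers, 1 library per mouse, called WT 1 to WT 5 and KO 1 to KO 5 hereafter. The mice were C57Bl6/J in the sample titles (C56Bl6/J in the strain label), the WT mice were littermates, and all mice were fed standard chow under a light and dark cycle. Thrb hep-/- mice came from crossing mice with loxP sites in Thrb to mice in which Afp regulatory sequences drive Cre. The Afp gene encodes alpha-fetoprotein, a protein of the fetal liver. The sex, age and time of collection of these mice are not given in the sources used here.

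Long-chain and other acyl groups enter metabolism as thioesters of coenzyme A (CoA), and acyl-CoA synthetases form these thioesters at the cost of ATP. Acyl-CoA thioesterases run the opposite step and release the free acid and CoA, in the cytosol, mitochondria or peroxisomes. The family holds proteins of unrelated folds. Acot1 to Acot6 are alpha/beta-hydrolases, whereas Acot7 to Acot13 carry the hotdog fold. In liver, Acot1 is best known as a target of the fatty acid receptor PPARA that is induced by fasting.

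Raw counts were deposited for each gene, and total counts per library lay between 26477195 and 28590704. Values are given as normalized CPM, counts scaled by the total of each library and its TMM factor, which evens out differences in composition between libraries. Genotypes were compared with the quasi-likelihood F-test of edgeR over the 12234 genes that reached 1 CPM in 5 or more libraries. P-values were adjusted over all of these genes (Benjamini-Hochberg), with a threshold of 0.15. Thrb itself had 33.4, 34.2, 32.5, 33.5 and 32.9 normalized CPM in WT 1 to 5, and 25.1, 24.9, 28.8, 25.9 and 28.8 in KO 1 to 5. Every Thrb hep-/- value lay below every WT value, with a log2 fold change of -0.32 (SE 0.07, edgeR adjusted p = 0.0359). These counts cover all exons of Thrb and all cells of the liver, and the deleted exons are not given in the sources used here. Of all tested genes, 499 (4.08%) passed the threshold, 185 (1.51%) higher and 314 (2.57%) lower in Thrb hep-/- livers. All 8 hepatocyte markers listed were measured and none passed the threshold, with summed levels of 88160 to 129800 normalized CPM in WT and 105500 to 118300 in Thrb hep-/- livers. In such bulk samples, fewer cells of a type and less RNA per cell cannot be told apart.

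Fat tissue transcripts set some libraries apart. The summed normalized CPM of 6 adipocyte markers (Adipoq, Plin1, Lep, Retn, Cidea and Ucp1) was 20.6 in KO 1, 24.6 in KO 4 and 49.1 in KO 5. It lay between 0.0374 and 0.21 in the WT libraries, at 0.0375 in KO 2 and at 0.0686 in KO 3. The 3 libraries with these transcripts had 5 or 6 of the 6 markers above 3 counts, Ucp1, the uncoupling protein of brown fat, among them, whereas Adipoq, Plin1, Lep and Ucp1 were at 0 in every WT library. The members and the pathway genes that passed the threshold are also given without these 3 libraries.

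The near-identical copies come first, because a read that maps equally well to several places was not counted. Acot1 to Acot6 lie side by side on the plus strand of chromosome 12 (GRCm38, chr12:83987861-84111349) in the order Acot2, Acot1, Acot4, Acot3, Acot5 and Acot6. The other members are scattered: Acot7 and Acot11 on chromosome 4, Acot8 on chromosome 2, Acot9 on the X chromosome, and Acot12 and Acot13 on chromosome 13. Acot2 starts the group at chr12:83987861-83993873 and Acot1 follows at chr12:84009490-84018371, each with 3 exons. Their coding sequences were 95.6% identical, with 55 differing bases among 1236 aligned and a longest identical run of 273 bases. Every other pair in the chromosome 12 group was between 75.3% and 85.8% identical. Acot9 matched Acot10, its single-exon copy on chromosome 15, at 97.2% of aligned coding bases. The 90 coding bases in which Acot1 and Acot2 differed most, at 14 positions, are shown. The coding sequences were 1257 bases long in Acot1 and 1359 in Acot2, so part of each lay outside the alignment. Within the aligned part, reads of these genes can be told apart only by bases that differ. Capitals mark the bases that differ, and positions count from the first base of the start codon, 797 to 886 in Acot1 and 920 to 1009 in Acot2.
Acot1: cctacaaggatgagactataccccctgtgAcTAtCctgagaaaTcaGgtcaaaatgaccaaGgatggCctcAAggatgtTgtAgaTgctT
Acot2: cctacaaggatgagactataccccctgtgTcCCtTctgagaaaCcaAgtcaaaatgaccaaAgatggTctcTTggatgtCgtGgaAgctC
Between these bases the copies were the same. Of all 100-base windows of annotated transcript sequence, 17.1% of those of Acot2 and 12.4% of those of Acot1 also occurred exactly in another gene. The share was 4.27% for Acot3, 0.336% for Acot4 and 0.705% for Acot9, and 0 for Acot7, Acot8, Acot11, Acot12 and Acot13. Reads that lie wholly in such windows were counted for neither copy, in both genotypes alike. Exons of neighbouring genes overlapped those of 5 members. They covered 20.9% of the Acot11 exons (Fam151a), 12.3% of those of Acot8 (Snx21), 4.5% of those of Acot12 (4833422C13Rik), and 20.6% of those of Acot3 and 9.7% of those of Acot4 (Gm49366 and the antisense gene 4732463B04Rik). Fam151a and Gm49366 had no count in any library, and counting was done without strand.

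Across the family, transcript level per length was dominated by 2 members. In WT livers, Acot13 had 85.2 ± 7.80 TPM and Acot12 66.9 ± 6.88 TPM (SD, n = 5). TPM divides each count by the length of the gene's exons and scales every library to the same sum. Acot13 (Them2) hydrolyses long-chain acyl-CoA at mitochondria, and Acot12 is a cytosolic acetyl-CoA hydrolase of the liver. Together they made up 33.0% ± 3.27 (Acot12) and 41.9% ± 2.23 (Acot13) of the summed TPM of the 10 members. Acot7, a cytosolic long-chain enzyme known for its abundance in brain, followed with 22.4 ± 2.67 TPM. Acot8, the peroxisomal thioesterase of broad substrate range, had 14.1 ± 1.53 TPM. Below them came Acot4 with 6.01 ± 3.53, the mitochondrial Acot9 with 3.46 ± 1.21, Acot11 with 2.79 ± 1.09, Acot1 with 1.29 ± 1.15, Acot2 with 0.639 ± 0.352 and Acot3 with 0.408 ± 0.536 TPM. The WT ranges of Acot13 and Acot12 overlapped (73.1 to 94.0 and 59.5 to 76.9 TPM), so their order is not set by these mice. Acot7, Acot8 and Acot4 each lay below the whole WT range of the next higher member. From Acot4 downwards each neighbour in the order overlapped the next.

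**Figure D1:**
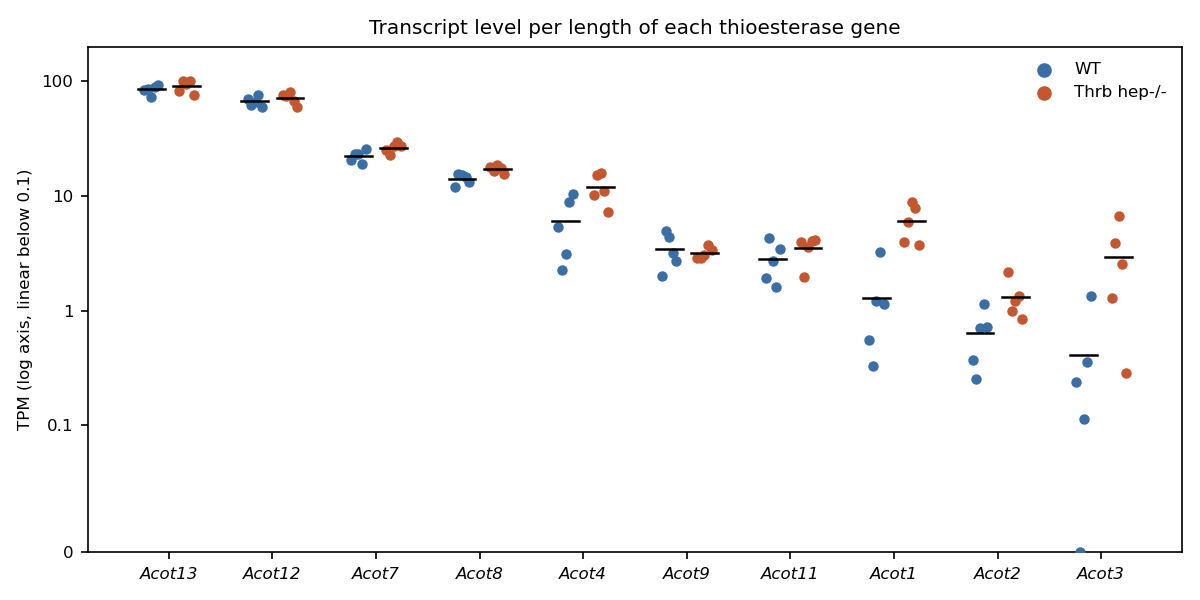
Transcript level of each member in TPM (log axis, linear below 0.1), 1 point per mouse and a black line at the mean of the 5 mice, WT in blue and Thrb hep-/- in orange. Acot13 and Acot12 sit highest in both genotypes, and Acot1 has a mean of 1.29 TPM in WT and 6.08 in Thrb hep-/- livers.

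The plot of TPM by member shows the same order in Thrb hep-/- livers for the 5 highest members. There Acot1 stood at 6.08 ± 2.30 TPM in rank 6, against rank 8 in WT, and made up 2.53% ± 0.743 of the family sum against 0.621% ± 0.52. The summed TPM of the members was 203.3 ± 11.6 in WT and 235.8 ± 24.5 in Thrb hep-/- livers (SD, n = 5). Acot1 thus made up a small share of the family's transcripts in both genotypes.

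Among the 9 members tested, the largest log2 fold changes were those of Acot1, Acot3 and Acot4 on chromosome 12. Acot1, the cytosolic long-chain thioesterase, had 0.908, 0.49, 1.75, 5.31 and 1.80 normalized CPM in WT 1 to 5, and 5.97, 9.97, 13.4, 11.4 and 5.83 in KO 1 to 5. All Thrb hep-/- values lay above all WT values, although WT 4 (5.31) came close to KO 5 (5.83). The log2 fold change was 2.19 (SE 0.53), and this rise is what the family was selected on. Acot1 reached 1 CPM in 3 WT and 5 Thrb hep-/- libraries. In KO 2 and KO 3, with summed adipocyte markers as low as in the WT libraries, Acot1 was among the 3 highest values, and the log2 fold change over these 2 libraries and the 5 WT was 2.53 (SE 0.70).

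Acot2 encodes the mitochondrial enzyme closest in sequence to Acot1. It had 9, 6, 16, 27 and 17 counts in WT 1 to 5 and 53, 25, 30, 33 and 21 in KO 1 to 5, or 0.21 to 1.06 normalized CPM in WT and 0.743 to 1.84 in Thrb hep-/- livers. With 1 CPM reached in 1 WT and 3 Thrb hep-/- libraries, Acot2 did not enter the test. The genotypes overlapped, since WT 4 lay above KO 2, KO 3 and KO 5. When no filter was set on low counts, its log2 fold change was 1.0 (edgeR adjusted p = 0.213). In that fit 27817 genes were tested.

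Acot3 and Acot4 encode peroxisomal enzymes, Acot3 for medium and long acyl chains and Acot4 for succinyl-CoA. Acot3 had 0.341, 0, 0.143, 0.508 and 1.83 normalized CPM in WT 1 to 5 and 1.70, 5.74, 8.82, 3.28 and 0.389 in KO 1 to 5. The value of 0 in WT 2 allows up to 0.105 CPM, the level of 3 counts in that library. KO 2 and KO 3 were highest, whereas KO 5 lay within the WT range and WT 5 lay above KO 1 and KO 5. Acot3 reached 1 CPM in 1 WT and 4 Thrb hep-/- libraries. It thus entered the test mostly through the genotype in which it was higher, which limits its p-values. The log2 fold change of Acot3 was 2.82 (SE 0.95, 95% interval 0.70 to 4.94, edgeR adjusted p = 0.225), and it did not pass the threshold. With the 3 libraries with adipocyte transcripts left out it was 3.70 (SE 0.90, edgeR adjusted p = 0.202).

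Acot4 had 15.1, 5.80, 7.79, 24.9 and 27.5 normalized CPM in WT 1 to 5 and 26.0, 43.8, 41.1, 27.2 and 19.2 in KO 1 to 5. KO 2 and KO 3 lay above every WT mouse, and the other Thrb hep-/- values fell within the WT range. Its log2 fold change was 0.96 (SE 0.43, 95% interval -0.01 to 1.93, edgeR adjusted p = 0.377). Without the 3 libraries it was 1.39 (SE 0.57, edgeR adjusted p = 0.416). The antisense gene 4732463B04Rik, whose exons overlap those of Acot3 and Acot4, had 0.179 to 0.786 normalized CPM in WT and 0.354 to 2.61 in Thrb hep-/- livers, highest in KO 3. Its part in the counts of Acot3 and Acot4 was not tested.

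The same locus holds 2 further family genes that are not members. Acot6, a peroxisomal enzyme of branched acyl chains, had 19 to 44 counts per library and a log2 fold change of -0.06 (SE 0.27, 95% interval -0.65 to 0.52, edgeR adjusted p = 0.951). Acot5 had 2 counts in KO 5 and none elsewhere. Acot10 had none in any library.

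The members outside chromosome 12 had smaller log2 fold changes. Acot8 had 10.1, 12.0, 11.3, 12.2 and 10.5 normalized CPM in WT 1 to 5 and 13.6, 14.2, 14.2, 13 and 12.3 in KO 1 to 5. Its genotypes did not overlap, the gap between WT 4 (12.2) and KO 5 (12.3) was narrow, and the log2 fold change was 0.27 (SE 0.08, 95% interval 0.09 to 0.45, edgeR adjusted p = 0.159), just short of the threshold. Snx21, which shares 12.3% of the Acot8 exons, had a log2 fold change of 0.08 (SE 0.12, edgeR adjusted p = 0.847).

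Acot7 had 18.4, 19.0, 18.4, 16.8 and 21.9 normalized CPM in WT 1 to 5 and 20.4, 21.1, 22.5, 23.3 and 23.0 in KO 1 to 5. Only WT 5 reached into the Thrb hep-/- range. The log2 fold change of Acot7 was 0.22 (SE 0.08, 95% interval 0.05 to 0.40, edgeR adjusted p = 0.247). Acot7 and Acot8 thus had smaller estimates than Acot4, with a smaller error.

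Acot12 had 97.2, 78.1, 80.4, 106 and 78.2 normalized CPM in WT 1 to 5 and 96.4, 105, 102, 82.5 and 79.3 in KO 1 to 5, with both genotypes over the same range. Its log2 fold change was 0.08 (95% interval -0.16 to 0.33, edgeR adjusted p = 0.817). Acot13 ranged from 20.2 to 27.9 normalized CPM in WT and from 22.6 to 32.5 in Thrb hep-/- livers, with a log2 fold change of 0.08 (95% interval -0.17 to 0.33, edgeR adjusted p = 0.826).

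Acot9 ranged from 1.93 to 4.30 normalized CPM in WT and from 2.5 to 3.18 in Thrb hep-/- livers (log2 fold change -0.13, SE 0.20, edgeR adjusted p = 0.849). Acot11, first described as a thioesterase induced in brown fat by cold, had 4.92, 9.86, 6.11, 4.06 and 8.31 normalized CPM in WT 1 to 5 and 9.27, 5.17, 8.37, 9.07 and 9.90 in KO 1 to 5. Its log2 fold change was 0.33 (SE 0.24, edgeR adjusted p = 0.607). Acot11 was higher in KO 1, KO 3, KO 4 and KO 5 than in KO 2, and with the 3 libraries carrying adipocyte transcripts left out its log2 fold change was 0.03 (SE 0.35).

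**Figure D2:**
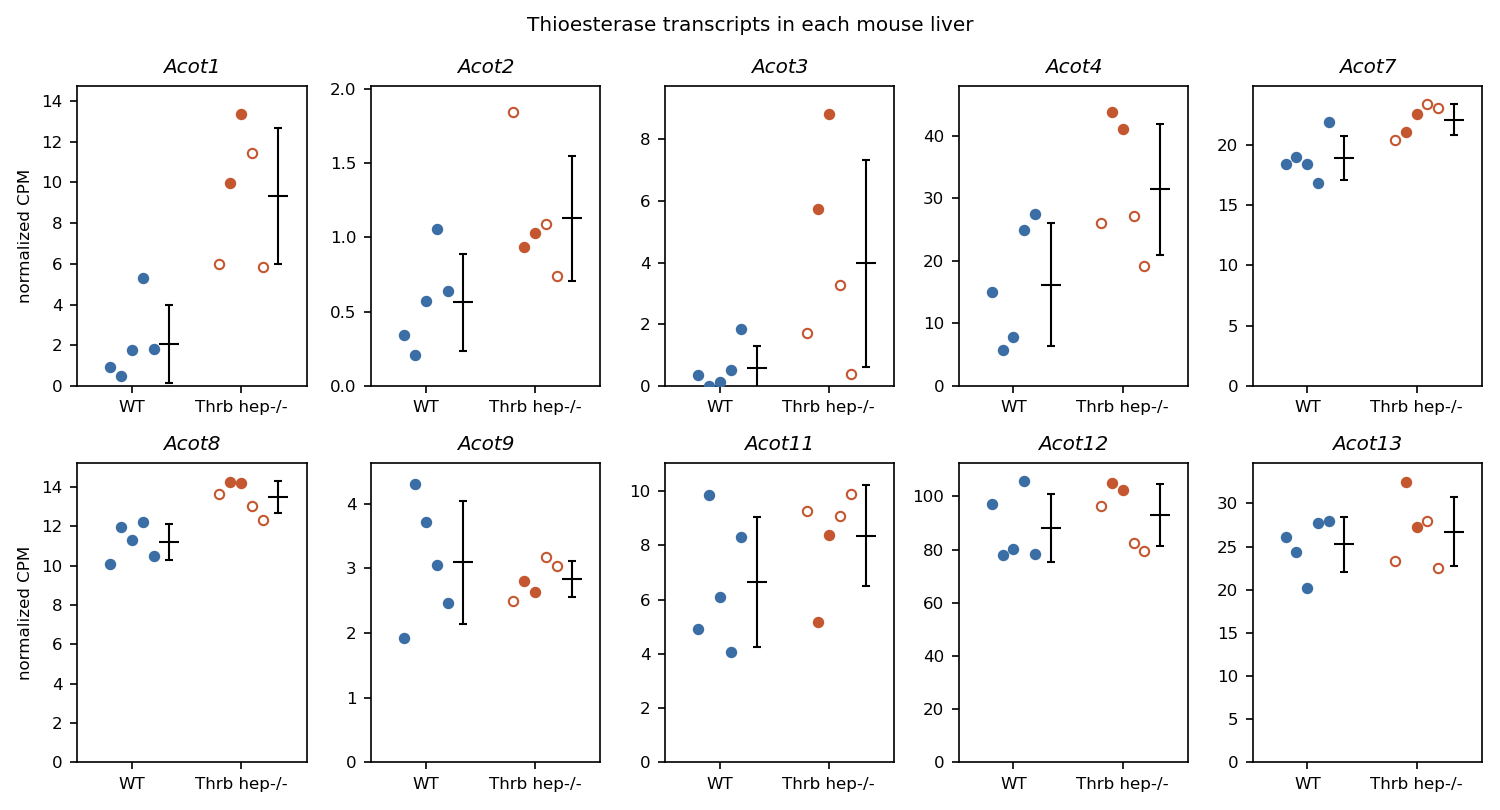
Normalized CPM of the 10 members, 1 point per mouse in the order 1 to 5 within WT (blue) and Thrb hep-/- (orange), with the mean and SD of 5 mice at the right of each group (bars cut at 0). Open points are KO 1, KO 4 and KO 5, the libraries with adipocyte transcripts. Acot1 and Acot8 show no overlap between the genotypes, and KO 2 and KO 3 are the highest values of Acot3 and Acot4.

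Counted over the family, 9 of the 10 members were tested, of which 8 were other than Acot1. Acot3, among these 8, entered the test mostly through its Thrb hep-/- libraries, so its part in the counts below is a description. None of these 8 passed the threshold with edgeR or with limma-voom (which called 531 genes, 4.34% of those tested), and DESeq2 called Acot3 and Acot8 (against 885 genes, 7.23% of those tested). At an unadjusted p of 0.05, 3 of the 8 passed with edgeR, Acot3, Acot7 and Acot8, against 13.6% of all tested genes. With each of the other tools 4 passed, but the share over all genes was not taken for them. Those counts therefore have no background to be read against. Apart from Acot1, which was selected on this difference, genotypes did not overlap for 1 of the 8, Acot8, against 3.64% of the tested genes. With the 3 libraries with adipocyte transcripts left out, again none of the 8 passed, against 1.51% of all tested genes, and 3 of the 8 had genotypes apart (Acot3, Acot4 and Acot8), against 17.2% of tested genes. Acot3 passed the threshold in 2 further fits, with the clock component as a covariate (3.37% of tested genes called) and without KO 5 (3.2%), and Acot8 passed without WT 4 (4.18%).

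**Figure D3:**
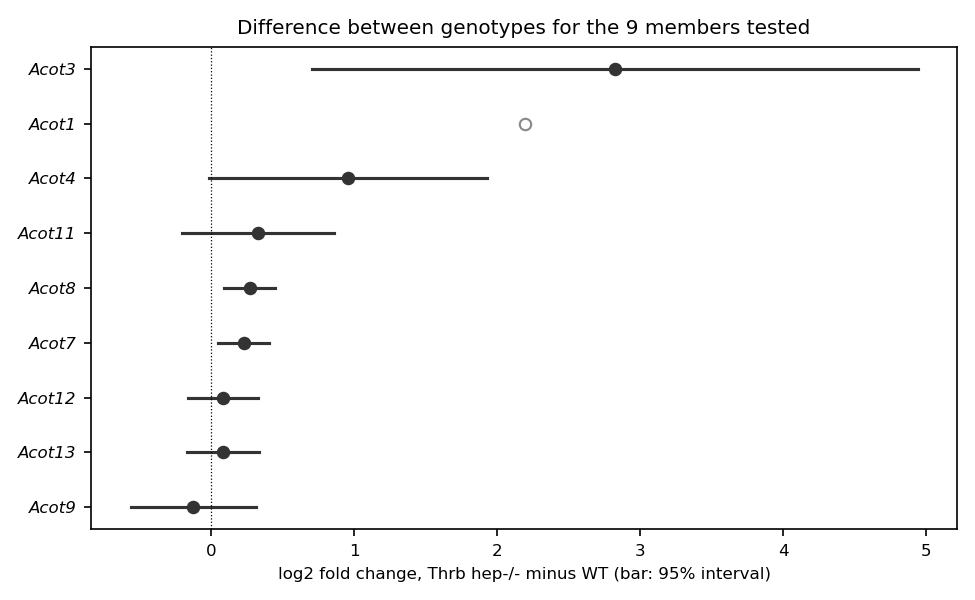
Log2 fold change, Thrb hep-/- minus WT, of the 9 members tested, with the 95% interval of the edgeR fit as bars. Acot1 (grey, open) was selected on this difference and is shown without an interval. The widest interval is that of Acot3 (0.70 to 4.94), followed by Acot4, and the narrowest are those of Acot7 and Acot8.

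In the plot of fold changes, Acot3 and Acot4 had the widest intervals. The members with large estimates also had a large spread between mice. Within WT alone, Acot1 differed by 10.9-fold and Acot4 by 4.75-fold between the lowest and highest mouse, against 1.22-fold for Acot8, 1.30-fold for Acot7 and 1.36-fold for Acot12. Acot9 and Acot11, with small estimates, lay between these, at 2.23-fold and 2.43-fold. WT 2 was the lowest WT mouse and KO 5 the lowest Thrb hep-/- mouse for each of Acot1, Acot2, Acot3 and Acot4. To describe this, log2 normalized CPM was taken as the deviation from the mean of the mouse's own genotype (10 mice). Pearson's r was 0.90 for Acot3 and Acot4, 0.74 for Acot1 and Acot2, 0.70 for Acot1 and Acot4, 0.64 for Acot1 and Acot3, 0.57 for Acot2 and Acot4 and 0.48 for Acot2 and Acot3. Without WT 4, the mouse with the highest WT value of Acot1, these were 0.94, 0.54, 0.63, 0.79, 0.43 and 0.50. Acot6 at the same locus had 0.14 with Acot1, whereas Acot13 on chromosome 13 had 0.75 with Acot4 and 0.70 with Acot3. The genes share libraries and, for Acot1 and Acot2, nearly the same coding sequence. Acot11 ran opposite to Acot12 (r = -0.82).

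**Figure D4:**
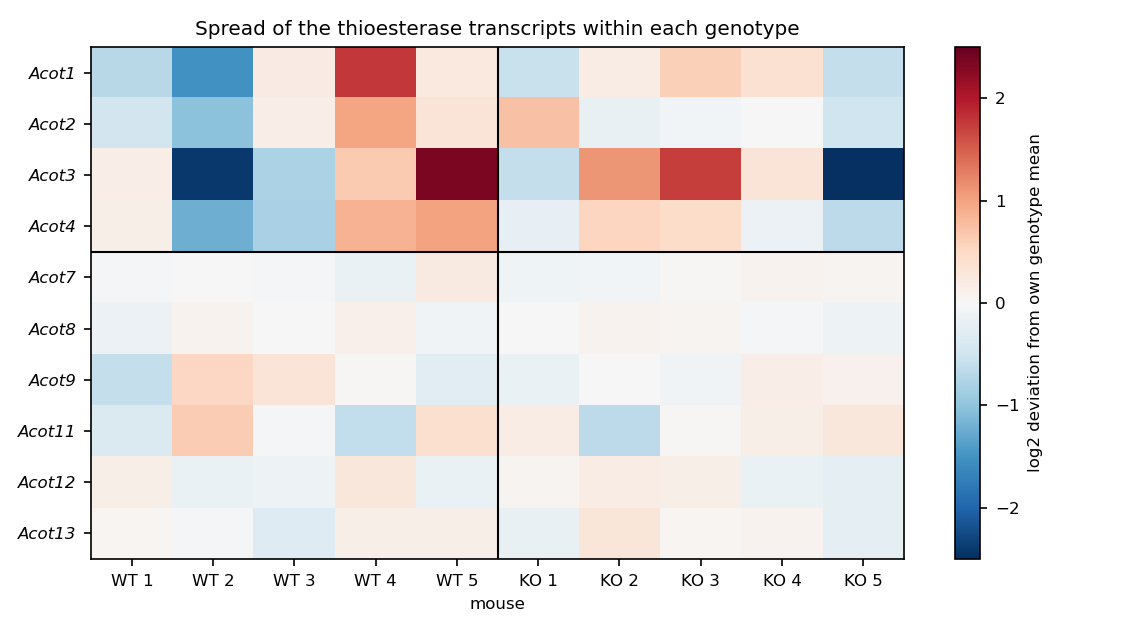
Deviation of each mouse from the mean of its own genotype in log2 normalized CPM, for the 10 members (rows) and 10 mice (columns). In the upper block, Acot1 to Acot4, WT 2 and KO 5 are low throughout, whereas Acot7, Acot8, Acot12 and Acot13 vary little.

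The 5 tested genes outside the family whose deviations were most like those of Acot1 were the processed pseudogene Gm9892 (r = 0.96), Ddhd2 (r = 0.92), Dnaja3 (r = 0.91), Dclre1c (r = 0.91) and Dcaf13 (r = 0.89), over 10 mice. Without WT 4 these were between 0.80 and 0.92. The 5 genes were taken as the highest r in a search over the 12234 tested genes, so their r carries no test. Their own log2 fold changes between genotypes were 0.06 to 0.24 and none passed the threshold (edgeR adjusted p = 0.386 to 0.855). Of 6 PPARA targets read in the same way, Slc25a20 had 0.82, Cyp4a10 0.77, Pex11a 0.75, Ehhadh 0.66, Cyp4a14 0.48 and Pdk4 -0.41 with Acot1. Without WT 4 these were 0.54, 0.59, 0.58, 0.58, 0.36 and -0.36.

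Promoter sequence was searched for AGGTCA, the half-site that THRB and PPARA bind as partners of RXR, on both strands in the 250 bases before each RefSeq gene start (GRCm38.p6). Of the 13 family genes, 11 had an entry, and 3 of these held AGGTCA, Acot4, Acot5 and Acot12, against 14.02% of all 32851 windows. That share counts windows, and a gene with several starts has several, 14 for these 11 genes. The count of genes is therefore not directly comparable with it. The spaced pairs AGGNCANAGGNCA and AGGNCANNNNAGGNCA, the first written for PPARA and the second for THRB, were in 0.34% and 0.21% of all windows and in none of the family. The windows of Acot1 and Acot4 are shown because both genes are in the chromosome 12 group and differ in this motif, which stands in capitals (on the minus strand) 13 to 8 bases before the start of Acot4. The first lies at chr12:84009252-84009489 and ends before the first annotated exon base of Acot1, and the second lies at chr12:84038129-84038378, both on the plus strand.
Acot1: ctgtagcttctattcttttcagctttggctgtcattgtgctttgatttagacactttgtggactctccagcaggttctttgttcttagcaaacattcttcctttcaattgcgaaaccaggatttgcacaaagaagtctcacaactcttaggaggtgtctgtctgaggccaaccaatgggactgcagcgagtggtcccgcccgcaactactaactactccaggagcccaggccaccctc
Acot4: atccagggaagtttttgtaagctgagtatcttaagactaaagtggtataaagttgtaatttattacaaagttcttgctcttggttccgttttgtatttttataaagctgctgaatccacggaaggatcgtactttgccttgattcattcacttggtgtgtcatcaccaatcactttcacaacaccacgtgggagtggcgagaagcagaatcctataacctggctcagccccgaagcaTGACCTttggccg
Acot1 had no AGGTCA in this window. A match is a string of letters and not a measured binding site.

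Genes around the thioesterases were read from lists of pathways. Of 112 listed genes, 102 were tested and 10 passed the threshold, 7 higher and 3 lower in Thrb hep-/- livers, against 1.51% and 2.57% of all tested genes. The median log2 fold change of the 21 tested PPARA targets was 0.67, against 0.000539 over all tested genes, and 20 of the 21 lay above 0. Of these targets, 3 passed the threshold, all higher in Thrb hep-/- livers. They were Pex11a, which drives the division of peroxisomes (0.68, SE 0.12, edgeR adjusted p = 0.0161), Ehhadh, an enzyme of peroxisomal beta-oxidation (0.78, SE 0.17, edgeR adjusted p = 0.0434), and Cidec, a protein of lipid droplets (1.51, SE 0.34, edgeR adjusted p = 0.0652). Ehhadh had 179, 152, 190, 226 and 175 normalized CPM in WT 1 to 5 and 282, 236, 393, 418 and 256 in KO 1 to 5, with the genotypes apart. Cidec was highest in KO 1, KO 4 and KO 5, at 11.6, 17.8 and 12.8 normalized CPM, and is also a gene of adipocytes. Without those libraries its log2 fold change was 0.55 (edgeR adjusted p = 0.418), that of Ehhadh was 0.78 (adjusted p = 0.184) and that of Pex11a was 0.76 (adjusted p = 0.109). Ppara itself had a log2 fold change of 0.20 (SE 0.09, edgeR adjusted p = 0.364).

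In mitochondrial beta-oxidation, 2 of 14 tested genes passed the threshold, higher in Thrb hep-/- livers. They were Cpt2 of the carnitine shuttle (0.34, SE 0.09, edgeR adjusted p = 0.105) and the long-chain dehydrogenase Acadl (0.31, SE 0.09, edgeR adjusted p = 0.144). All 14 log2 fold changes lay above 0, with a median of 0.21. In peroxisomal beta-oxidation, Pex11a and Ehhadh were the 2 of 19 that passed. Of these 19 genes, 12 had a log2 fold change above 0, and the median was 0.14. The acyl-CoA synthetases, which make the substrates of the thioesterases, had 1 of 15 higher and 1 lower past the threshold, and 9 of the 15 above 0. Acsl1, the main long-chain synthetase of liver, had 600, 574, 655, 855 and 505 normalized CPM in WT 1 to 5 and 1005, 798, 1218, 1168 and 1178 in KO 1 to 5 (log2 fold change 0.75, SE 0.16, edgeR adjusted p = 0.0353). Acsm2, a synthetase of medium chains, fell by 1.58 on the log2 scale (SE 0.30, edgeR adjusted p = 0.0228). Without the 3 libraries with adipocyte transcripts none of these passed except Pex11a, with log2 fold changes of 0.36 for Cpt2 (edgeR adjusted p = 0.349), 0.39 for Acadl (0.298), 0.67 for Acsl1 (0.286) and -1.32 for Acsm2 (0.211).

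Among 11 related thioesterases and acyltransferases, 1 passed the threshold. Acnat1, a peroxisomal acyltransferase from the same protein family as Acot1 to Acot6, fell by 0.65 on the log2 scale (SE 0.13, edgeR adjusted p = 0.0263), from 22.6 to 27.1 normalized CPM in WT to 12.0 to 20.1 in Thrb hep-/- livers. Without the 3 libraries its log2 fold change was -0.54 (edgeR adjusted p = 0.114). None of the 10 genes of CoA synthesis and breakdown passed. The smallest p-values were those of Nudt7, the peroxisomal CoA diphosphatase (log2 fold change -0.38, edgeR adjusted p = 0.272), and Coasy, the CoA synthase (0.15, edgeR adjusted p = 0.327).

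**Figure D5:**
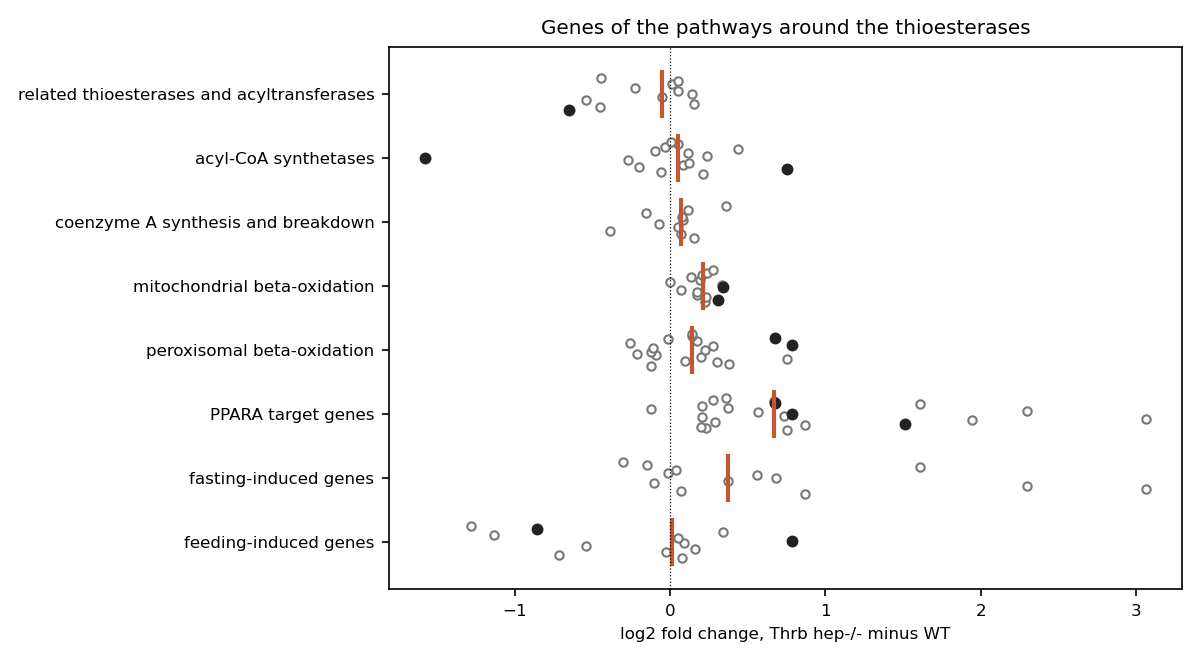
Log2 fold change, Thrb hep-/- minus WT, of the tested genes of 8 lists, 1 point per gene, filled where the edgeR adjusted p was below 0.15, with the list's median as an orange bar. The PPARA list has its median at 0.67 and the mitochondrial list at 0.21, and a gene on several lists is drawn in each.

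Genes that follow feeding state were read beside these. None of the 13 fasting-induced genes passed the threshold (median log2 fold change 0.37). Cyp4a14 came nearest, with 5.45, 3.85, 14.8, 16 and 1.16 normalized CPM in WT 1 to 5 and 55.2, 29.3, 122, 134 and 4.60 in KO 1 to 5 (log2 fold change 3.06, SE 0.91, edgeR adjusted p = 0.168). KO 5 was lowest of the Thrb hep-/- mice here, as it was for Acot1 to Acot4. Pdk4, the kinase that shuts down pyruvate dehydrogenase, was next (log2 fold change 1.61, SE 0.53, edgeR adjusted p = 0.21). It had 1.06 to 2.002 normalized CPM in WT mice and 6.08, 1.35, 2.40, 2.88 and 11.7 in KO 1 to 5, so that KO 5 was highest for Pdk4. Among 12 feeding-induced genes, Me1, malic enzyme, rose by 0.79 (SE 0.18, edgeR adjusted p = 0.0652) and Srebf1, the lipogenic transcription factor, fell by 0.85 on the log2 scale (SE 0.23, edgeR adjusted p = 0.102). Without the 3 libraries neither passed, at 0.76 for Me1 (edgeR adjusted p = 0.351) and -1.04 for Srebf1 (0.321). The part of feeding state in the values of Acot1 to Acot4 was not tested.

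Acute-phase genes, the liver's response to inflammation, moved with genotype in the same mice. Of 17 tested, 12 passed the threshold, all lower in Thrb hep-/- livers, and none of the 17 had a log2 fold change above 0. The median was -1.14. The summed levels of these genes were 35910 to 84120 normalized CPM in WT and 24240 to 39850 in Thrb hep-/- livers. Their first principal component correlated with genotype at an absolute r of 0.85 over the 10 mice. In a fit with that component as a covariate the log2 fold change of Acot1 was 0.75, that of Acot3 was 3.05, of Acot4 1.02, of Acot11 0.90, of Acot7 0.32 and of Acot8 0.27. In that fit 7 genes passed among all those tested, none of them a member. Of the 6 tested Kupffer cell and leukocyte markers, 1 (S100a8) fell past the threshold. None of the 6 had a log2 fold change above 0, and their median was -0.72. Their summed levels were 81.2 to 275 normalized CPM in WT and 91.8 to 194 in Thrb hep-/- livers. None of the tested endothelial, stellate or cholangiocyte markers passed. No adipocyte or muscle marker entered the test. The part of the acute-phase genes in the values of the members was not tested.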

How the data were processed

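Liver RNA of 10 mice was grouped by genotype from the sample labels. Per the study's methods, the authors mapped stranded mRNA libraries with HISAT2 2.2.1 on mm10 (GRCm38) and counted reads per gene with HTSeq-count 0.9.1 on the Ensembl annotation, in union mode, at a minimum quality of 10 and without strand, so reads of several places or genes were left out. The deposited values are raw counts. The authors' table of fold changes and p-values was not used. Counts were analysed with edgeR 4.0.16 (robust quasi-likelihood, TMM), limma 3.58.1 and DESeq2 1.42.0 in R 4.3.3. SE was taken as the size of the log2 fold change over the square root of F. Log2 values used a prior count of 2. Lengths, windows and identities came from GENCODE transcripts on GRCm38, of another release than the counts, with Biopython 1.88. Replicate numbers did not pair the mice, with correlations of same-numbered deviations from -0.202 to 0.00923. The members and lists were chosen with earlier results of these data known. Named genes were the family, Thrb, up to 4 genes past the threshold of each list (otherwise the 2 smallest p-values) and the 5 genes most like Acot1. Values given for Ppara, Snx21, 4732463B04Rik, and 6 PPARA targets beside Acot1 were added after the values were seen. At this depth 3 counts are 0.105 to 0.113 CPM, which covers counting error only.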

Additional observations from a re-analysis of the deposited data

Results flagged for a closer look

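Samples far from the rest of their group were looked for in 24 groups of 5 values (11 family genes and the summed TPM of the members, in each genotype). Chance gives about 1 in 20, or 1.2 groups, and 2 were found. WT 4 had 5.31 normalized CPM of Acot1 against 0.49 to 1.80 in the other WT mice. WT 5 had 1.83 normalized CPM of Acot3 against 0 to 0.508 in the other WT mice. With WT 4 left out the log2 fold change of Acot1 was 2.92.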

How the results depend on the processing

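Over all genes, 499 passed the threshold, 885 with DESeq2, 7 with the acute-phase component as a covariate, 185 with the 3 libraries with adipocyte markers left out (chosen after seeing the data), and between 222 (without KO 3) and 665 (without KO 1) with 1 mouse left out, 227 without WT 2 and 239 without WT 5. Of the 8 members other than Acot1, 2 passed with DESeq2 (Acot3 and Acot8) and 1 with the clock component as a covariate (Acot3, with 412 genes passing in all). With 1 mouse left out, 0 to 1 passed, Acot8 without WT 4 (509 genes in all) and Acot3 without KO 5 (390). Acot3 had too few libraries at 1 CPM to be tested without WT 5 and without each of KO 1 to KO 4. Of the listed pathway genes, 10 passed, 19 with DESeq2, 0 with the acute-phase component, 2 with the 3 libraries left out, and 6 (without WT 2) to 20 (without WT 4) with 1 mouse left out. Apart from Acot1, which was selected on this difference, genotypes were apart for 1 of the 8 tested members, against 3.64% of tested genes. With the 3 libraries left out they were apart for 3 of the 8, against 17.2%. The fit with the replicate number as a block gave 348 genes, 13 listed genes and 0 members, and as the numbers do not pair the mice it bears on no result. The log2 fold change of Thrb was -0.32, -0.32 with the acute-phase component (adjusted p = 1) and -0.31 with the 3 libraries left out (adjusted p = 0.243), and -0.35 to -0.29 with 1 mouse left out. That of Acot1 ran from 0.752 to 2.92 over all alternatives. Acot9 changed sign without WT 2 (0.0233; -0.254 without WT 1) and Acot12 with the acute-phase component (-0.0372). The summed member level in WT was 203.3 TPM, 191.5 with the longest transcript as length and 217.8 with only windows found in no other gene. With windows of 50 bases, as with 100, 8 family genes shared sequence. The share of windows also found in another gene was larger with 50 bases for the members that shared sequence. It was 27.7% for Acot2, 19.2% for Acot1, 8.17% for Acot3, 4.83% for Acot4 and 15.2% for Acot9. For Acot7, Acot8, Acot11, Acot12 and Acot13 it stayed at 0. The causes were not tested.

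Read length is not given in the sources used here, so the share of reads lost to copies is unknown. Genes with few counts, as Acot2, Acot3, Acot5, Acot6 and Acot10 here, are limited by depth. The litter and collection time of each mouse are not given in the sources used here.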
